A study of Rattus norvegicus with 4 samples.

Results

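The small heat shock proteins of muscle are 7 related chaperones encoded by Cryab, Hspb1, Hspb2, Hspb3, Hspb6, Hspb7 and Hspb8. All probe sets whose only gene symbol in the platform annotation was one of these were taken, which gave 8 probe sets for 7 of the 7 genes, out of 15866 probe sets on the array after Affymetrix control probe sets were set aside. A probe set is a group of short probes that together read 1 transcript. Hspb8 had 2 probe sets and each other gene had 1. RNA came from cultured ventricular myocytes of neonatal rats, which are the beating muscle cells of the heart. The fibronectin group (replicates 1 and 2) grew in dishes coated with fibronectin, a matrix glycoprotein to which integrins attach, and the control group (replicates 1 and 2) in uncoated dishes. In both groups the cells spent 24 h in medium with 10% serum and the following 48 h in medium free of serum, and each sample was hybridised to 1 array. The labels do not say that the samples of a group were separate cultures, so the p-values measure the spread between these samples only, which may be technical.

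Small heat shock proteins share a conserved alpha-crystallin domain, assemble into oligomers and hold partly unfolded proteins in a state from which chaperones that use ATP can refold them or pass them on for degradation. In striated muscle they bind the Z-disc, titin, desmin and filamin under mechanical and oxidative stress. Cryab, Hspb1, Hspb6 and Hspb8 are made in many tissues with high amounts in the heart, whereas Hspb2, Hspb3 and Hspb7 are largely restricted to striated muscle. Several of the first kind are targets of heat shock factor 1, which binds repeats of the letters GAA and their complement TTC.

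RefSeq promoter sequences on the rat assembly GRCr8 were found for 5 of the 7 genes: Hspb1, Hspb3, Hspb6, Hspb7 and Hspb8. The 250 bases before the annotated start are shown, 5′ to 3′ on the strand of the gene. They are shown because these 5 promoters can be put into 2 sets by the motifs found there. The sets were formed from those motifs, so the counts below describe the sets and do not test them. The first set holds the promoters with a facing pair of GAA and TTC, called a heat shock unit here, and capitals mark each GAANNTTC or TTCNNGAA. Only such pairs were searched for, not longer runs of repeats, and binding of a heat shock factor was not tested.
Hspb8, chr12:45837058-45837307, plus strand: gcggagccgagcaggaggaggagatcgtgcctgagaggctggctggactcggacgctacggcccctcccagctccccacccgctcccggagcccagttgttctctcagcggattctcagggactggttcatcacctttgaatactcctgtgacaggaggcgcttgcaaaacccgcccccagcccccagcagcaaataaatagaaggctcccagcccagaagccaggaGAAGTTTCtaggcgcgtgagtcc
Hspb1, chr12:26432302-26432551, minus strand: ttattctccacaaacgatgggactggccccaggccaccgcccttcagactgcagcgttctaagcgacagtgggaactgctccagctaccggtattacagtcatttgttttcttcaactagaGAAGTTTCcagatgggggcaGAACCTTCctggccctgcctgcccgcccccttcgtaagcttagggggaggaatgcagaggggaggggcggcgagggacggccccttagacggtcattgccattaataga
Hspb6, chr1:94934122-94934371, plus strand: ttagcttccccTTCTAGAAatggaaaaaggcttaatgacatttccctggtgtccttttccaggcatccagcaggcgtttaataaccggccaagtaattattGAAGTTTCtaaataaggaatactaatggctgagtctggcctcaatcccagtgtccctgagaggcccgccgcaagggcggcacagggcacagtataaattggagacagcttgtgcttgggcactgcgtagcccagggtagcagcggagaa
The letters GAAGTTTC stood in each of these 3 promoters, at -23 to -16 in Hspb8, -129 to -122 in Hspb1 and -149 to -142 in Hspb6, counted back from -1 as the base before the start. Hspb1 had a further unit, GAACCTTC, at -109 to -102, and Hspb6 had TTCTAGAA at -239 to -232. Both units read the same on either strand as patterns, and no marked match overlapped another. GAANNTTC was found in 3 of the 5 promoters and in 7.23% of 33469 rat promoter windows of the same length. TTCNNGAA was found in 1 of 5 and in 7.48% of all windows. At least 1 of these units, which defines the set, was found in 3 of the 5 promoters and in 13.5% of all windows. GAAGTTTC, chosen after the sequences were seen and counted on both strands, was in 1.22% of all windows.

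The second set holds the promoters with a match to the binding consensus of the myocyte enhancer factor MEF2, marked in capitals.
Hspb3, chr2:47029166-47029415, minus strand: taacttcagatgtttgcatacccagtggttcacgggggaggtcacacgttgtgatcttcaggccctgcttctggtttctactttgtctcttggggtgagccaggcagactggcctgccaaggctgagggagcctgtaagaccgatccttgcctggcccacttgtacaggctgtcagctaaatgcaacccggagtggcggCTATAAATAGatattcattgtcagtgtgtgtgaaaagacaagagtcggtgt
Hspb7, chr5:159010509-159010758, plus strand: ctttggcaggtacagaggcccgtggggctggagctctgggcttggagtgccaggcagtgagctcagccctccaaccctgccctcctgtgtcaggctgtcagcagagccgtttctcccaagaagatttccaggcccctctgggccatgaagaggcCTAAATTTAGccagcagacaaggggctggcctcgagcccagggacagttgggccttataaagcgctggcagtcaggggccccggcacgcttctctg
The match lay at -51 to -42 in Hspb3 and at -96 to -87 in Hspb7. It was found in 2 of the 5 promoters and in 2.96% of all windows, both strands searched. In Hspb3 it overlapped the letters TATAAA at -50 to -45, whereas in Hspb7 TATAAA lay apart from it at -41 to -36. TATAAA was found in 3 of the 5 promoters, the other being that of Hspb6, and in 12.9% of all windows. Neither heat shock unit was found in the windows of Hspb3 and Hspb7, which says only that these letters are not in these 250 bases.

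Intensities were quantile normalized, which gives all arrays the same distribution of values, and taken to log2. Values under a floor of 4.55 (log2), the 20th percentile, were raised to it, and the 40% of probe sets with the lowest mean were left out as too dim to test. Over the 9519 probe sets tested, log2 signals correlated at r = 0.792 between the 2 fibronectin arrays and at 0.911 between the 2 controls. Fibronectin replicate 2 stood apart, with r between 0.775 and 0.794 against the other arrays, and the difference of each probe set is given below without it as well. Fibronectin replicate 1 correlated at 0.904 with control replicate 1 and 0.847 with control replicate 2, more than with the other fibronectin array. The ratio of 3' to 5' signal of the Gapdh control transcript, which goes up when RNA is broken or copied incompletely, was 6.02 and 3.52 in the fibronectin group, against 1.64 and 1.15 in the control group. For beta-actin it was 13.0 and 6.29 on fibronectin and 1.46 and 1.40 on the controls. The part of these ratios in the differences below was not tested. Ventricular myocyte markers were measured for 14 of the 15 listed genes, none of them too dim to test, and the log2 of their summed signal was 16.62 and 16.63 on fibronectin and 16.63 and 16.51 on the controls. These sums are of quantile-normalized values. On the deposited scale the same markers had a median difference of 0.50, so the sums do not show equal myocyte content.

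The comparison asked how transcripts of these chaperones compare in myocytes kept on fibronectin and without a coating, in a study of hypertrophy. For Cryab and Hspb3 the lower fibronectin value exceeded the higher control value, for a probe set of Hspb8 both fibronectin values were below both control values, and the other 5 probe sets had overlapping groups. All 8 probe sets were bright enough to be tested and none was at the floor on any array. In limma's test 0 of the 8 passed a Benjamini-Hochberg adjusted p below 0.05, and 0% of the 9519 probe sets tested did. At an unadjusted p below 0.05 there were 2 of the 8, the Hspb3 probe set and the dimmer Hspb8 probe set, against 6.5% of all probe sets. The Hspb3 probe set was among 2.64% with a higher value at that p and the Hspb8 probe set among 3.87% with a lower one. Groups did not overlap for 3 of the 8, 2 above and 1 below, against 38.2% of all probe sets tested, with 19.2% above and 19.1% below. The members' share was close to that background. With 2 arrays in each group an exact two-sided permutation test cannot give a p below 0.333.

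**Figure D1:**
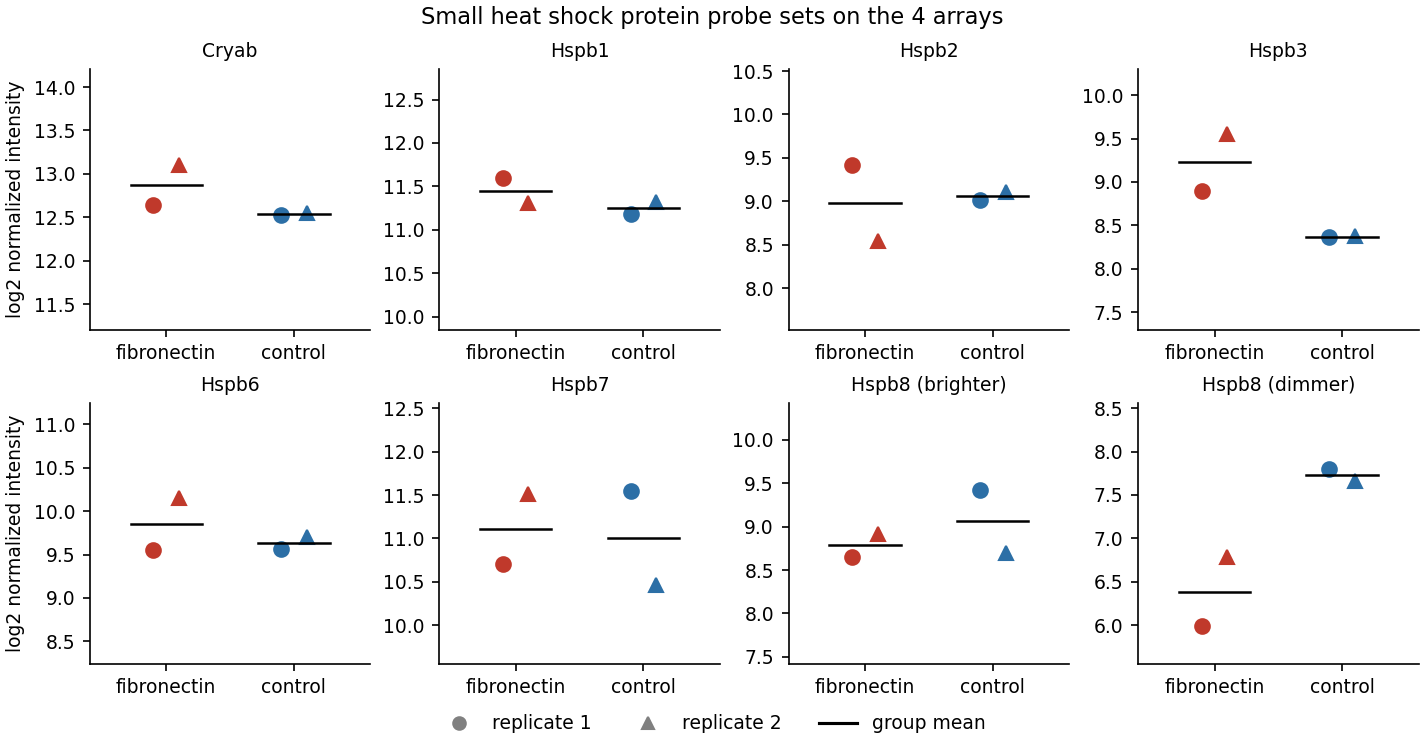
Log2 quantile-normalized intensity of the 8 probe sets on the 4 arrays, with fibronectin in red and control in blue, circles for replicate 1, triangles for replicate 2 and a black bar at each group mean. Each panel spans 3 log2 units. Cryab and Hspb3 lie above both controls on both fibronectin arrays, and the dimmer Hspb8 probe set lies below both.

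Among the broadly made chaperones, Cryab (Entrez gene 25420) encodes alpha-B-crystallin, which binds desmin and titin and is a main small heat shock protein of the heart. Its deposited intensity was 7979 and 11237 on fibronectin replicates 1 and 2, against 4971 and 4719 on control replicates 1 and 2. After quantile normalization its log2 signal was 12.64 and 13.10 on fibronectin and 12.53 and 12.55 on the controls. Both fibronectin values lay above both controls, fibronectin replicate 1 by a small margin and replicate 2 by a larger one. The normalized difference was 0.33 (SE 0.26, 95% interval -0.28 to 0.94), a ratio of 1.26 for fibronectin over control, with limma's Benjamini-Hochberg adjusted p = 0.794.

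The size of the Cryab difference depended on how the arrays were scaled. On the deposited scale it was 0.97 (SE 0.26), a ratio of 1.96, with adjusted p = 0.663 in limma, and with the arrays moved to a common median it was 0.92. Quantile normalization brings the upper ends of the arrays together. Over the 167 probe sets with a mean log2 signal of at least 12, the median of deposited minus normalized log2 signal was 0.28 and 0.27 in the fibronectin group and -0.31 and -0.37 in the control group. Counted by rank, which no scaling of a whole array can move, 0.655% and 0.397% of probe sets were brighter than Cryab on fibronectin replicates 1 and 2, against 0.719% and 0.706% on the controls. Cryab thus stood higher in rank on both fibronectin arrays, by more on replicate 2. Without fibronectin replicate 2 its normalized difference was 0.10, and without fibronectin replicate 1 it was 0.56.

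Hspb1 (Entrez gene 24471) encodes the rodent protein Hsp25 (Hsp27 in humans), which guards actin filaments and is phosphorylated by MAPKAP kinase 2. Its log2 signal was 11.59 and 11.31 on fibronectin, against 11.18 and 11.31 on the controls. Fibronectin replicate 2 matched control replicate 2, so the groups overlapped. The difference was 0.20 (SE 0.26, 95% interval -0.41 to 0.81), with limma's Benjamini-Hochberg adjusted p = 0.861. On the deposited scale, where the values were 3762 and 2549 on fibronectin and 2281 and 2094 on the controls, the groups did not overlap and the difference was 0.50. Without fibronectin replicate 2 the normalized difference was 0.35, and without fibronectin replicate 1 it was 0.06.

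Hspb6 (Entrez gene 192245) encodes Hsp20, a substrate of the cyclic nucleotide-dependent protein kinases that is known to relax smooth muscle and to protect cardiac myocytes. Its log2 signal was 9.56 and 10.15 on fibronectin, against 9.56 and 9.70 on the controls. Only fibronectin replicate 2 was high, and the difference was 0.22 (SE 0.32, 95% interval -0.53 to 0.97), with limma's Benjamini-Hochberg adjusted p = 0.881. Without fibronectin replicate 2 it was -0.076. On the deposited scale the values were 962 and 955 on fibronectin and 808 and 690 on the controls, and the groups did not overlap.

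Hspb8 (Entrez gene 113906) encodes Hsp22, which joins the co-chaperone Bag3 in the autophagic removal of damaged filamin. The dimmer of its probe sets had deposited intensities of 64.8 and 103 on fibronectin and 243 and 176 on the controls. The normalized log2 signals were 5.99 and 6.78 on fibronectin and 7.80 and 7.66 on the controls, so that both fibronectin arrays lay well below both controls. The difference was -1.35 (SE 0.49, 95% interval -2.48 to -0.21), a value 2.54-fold lower on fibronectin, with an unadjusted p = 0.0257 and a Benjamini-Hochberg adjusted p = 0.720 in limma. More probe sets were brighter than this one on the fibronectin arrays, 62.2% and 47.7%, than on the controls, 28.1% and 30.7%.

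The brighter Hspb8 probe set did not show a difference of that size. Its log2 signal was 8.65 and 8.92 on fibronectin, against 9.42 and 8.70 on the controls. Control replicate 1 alone was high, and the other 3 arrays lay within a narrow range. The difference was -0.28 (SE 0.37, 95% interval -1.13 to 0.58), with limma's Benjamini-Hochberg adjusted p = 0.867. With control replicate 1 left out it was 0.088, and with fibronectin replicate 2 left out it was -0.41. For the dimmer probe set the difference ran from -1.74 without fibronectin replicate 2 to -0.95 without fibronectin replicate 1. The probe sets of this gene thus disagreed in size. The Gapdh 3' to 5' ratio was 6.02 on fibronectin replicate 1, where the dimmer probe set was lowest, and the part of that ratio was not tested.

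Among the muscle-restricted members, Hspb3 (Entrez gene 78951) encodes a small heat shock protein that forms mixed oligomers with Hspb2. Its deposited intensity was 607 and 618 on fibronectin, against 359 and 283 on the controls. The normalized log2 signals were 8.90 and 9.55 on fibronectin and 8.37 and 8.38 on the controls. Both fibronectin arrays were higher than the controls, which lay almost on top of each other after normalization. On the deposited scale it was the fibronectin pair that lay close together, so the spread within groups depended on the scaling. The difference was 0.86 (SE 0.36, 95% interval 0.03 to 1.68), a ratio of 1.81 for fibronectin over control, with an unadjusted p = 0.0434 and a Benjamini-Hochberg adjusted p = 0.754 in limma. It was 0.94 on the deposited scale and 0.89 after the median shift, so Hspb3, unlike Cryab, had nearly the same difference under the 3 scalings. Without fibronectin replicate 2 it was 0.53, and without fibronectin replicate 1 it was 1.18.

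Hspb2 (Entrez gene 161476) encodes a partner of the myotonic dystrophy protein kinase. On GRCr8 its annotated span overlaps that of Cryab on chromosome 8, and in the mouse the genes are known to lie head to head and to share regulatory sequence. The log2 signal of Hspb2 was 9.42 and 8.54 on fibronectin, against 9.02 and 9.10 on the controls. Fibronectin replicate 1 was the highest of the 4 arrays and replicate 2 the lowest, while Cryab was highest on replicate 2. The difference of Hspb2 was -0.08 (SE 0.38, 95% interval -0.96 to 0.80), with limma's Benjamini-Hochberg adjusted p = 0.967. On the deposited scale it was 0.021. It was 0.36 without fibronectin replicate 2 and -0.52 without fibronectin replicate 1.

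Hspb7 (Entrez gene 50565) encodes the cardiovascular heat shock protein, which binds filamin C and is needed for intact sarcomeres in mouse hearts. Its log2 signal was 10.71 and 11.51 on fibronectin, against 11.55 and 10.46 on the controls. Fibronectin replicate 1 and control replicate 2 were low, and fibronectin replicate 2 and control replicate 1 were high, so that replicates differed by more than the groups did. The difference was 0.10 (SE 0.43, 95% interval -0.89 to 1.10), with limma's Benjamini-Hochberg adjusted p = 0.961. On the deposited scale it was 0.45, with values of 2084 and 3022 on fibronectin and 2807 and 1204 on the controls, and after the median shift it was 0.40. Leaving out 1 array moved the normalized difference from -0.44 without control replicate 2 to 0.65 without control replicate 1, and it was -0.30 without fibronectin replicate 2.

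**Figure D2:**
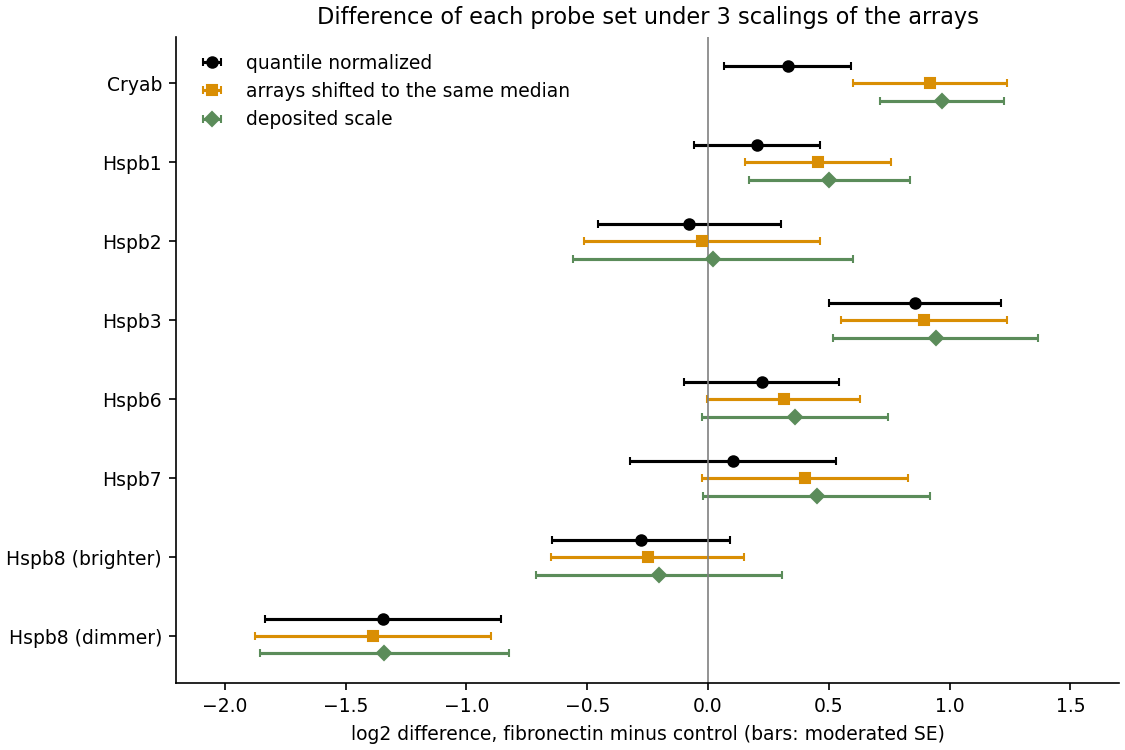
Log2 difference, fibronectin minus control, of each probe set with arrays quantile normalized (circles), shifted to the same median (squares) or on the deposited scale (diamonds), with bars for limma's moderated SE. Cryab moves from 0.33 to 0.97 with the scaling, Hspb3 stays between 0.86 and 0.94, and the dimmer Hspb8 probe set stays between -1.39 and -1.34.

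Across the members, 5 of the 8 probe sets had a higher mean on fibronectin, against 48.7% of all probe sets tested. With 1 probe set a gene, the brightest, the median difference of the 7 genes was 0.20, against 0.02 over 7102 genes tested. Of these 7, 5 were higher, against 51.3% of all genes. On the deposited scale the median of the 7 genes was 0.45. The median over all probe sets tested, not taken as 1 a gene, was 0.058 there. The groups there did not overlap for 5 of the 8 probe sets, 4 above and 1 below, against 33.1% of all probe sets. After the median shift the same counts were 4 above and 1 below, against 36.5%. Bright probe sets, Cryab among them, stood higher on fibronectin on the deposited scale than after quantile normalization, as given above. The shares over all probe sets do not take brightness into account. With each gene set against its mean over the controls, the members' median was 0.10 on fibronectin replicate 1 and 0.50 on fibronectin replicate 2. It was thus highest on the array that stood apart.

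**Figure D3:**
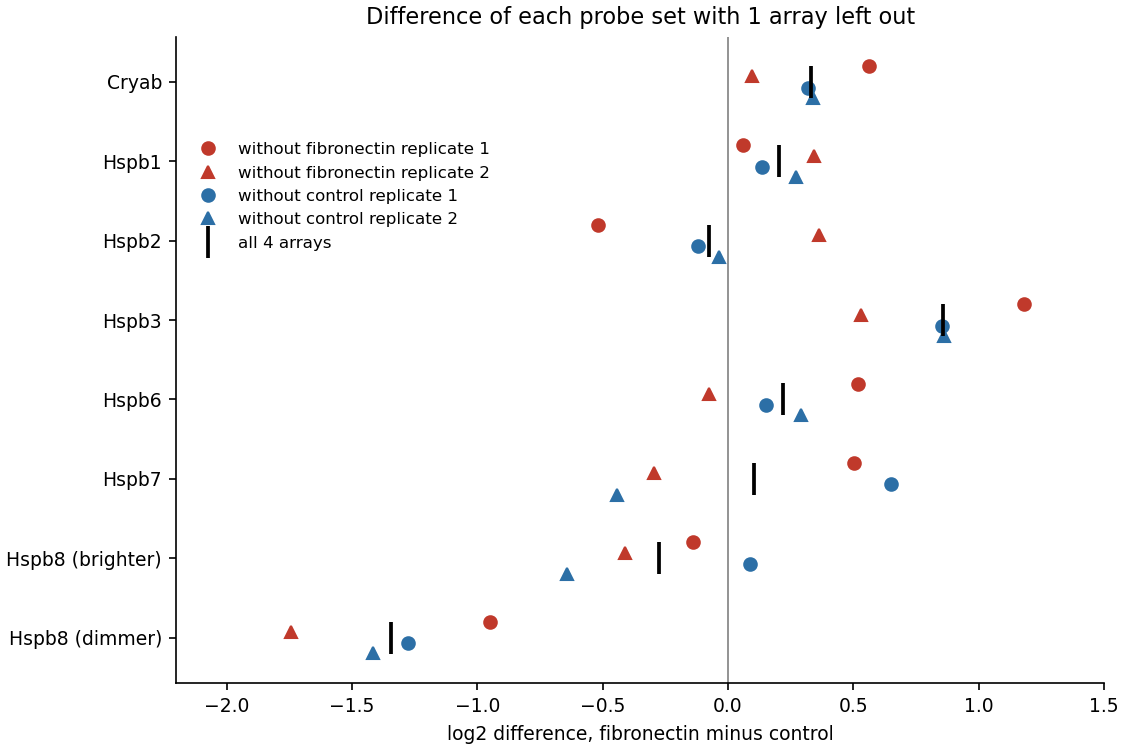
Log2 difference, fibronectin minus control, of each probe set with all 4 arrays (black bars) and with 1 array left out (red, a fibronectin array left out; blue, a control; circles, replicate 1; triangles, replicate 2). Cryab, Hspb1, Hspb3 and the dimmer Hspb8 probe set keep their sign with any 1 array left out, and the other 4 probe sets do not.

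The members did not share one pattern over the 4 arrays. Likeness was measured as the root mean square distance between log2 signals, each centred on its own mean over the 4 arrays, with 1 probe set a gene. Cryab and Hspb6 were the closest members, at a distance of 0.08, and Hspb6 was the 78th closest of 7101 genes to Cryab. The median gene lay at 0.41 from Cryab. Both had a spread over the arrays, 0.23 and 0.24, below the median of 0.38, and a small spread by itself makes such distances small. The nearest member to Hspb3 was Cryab, at 0.27, and to Hspb7 it was Hspb8, at 0.30. For Hspb3 the nearest genes were Pdrg1, Noa1 and Yipf3, at 0.04, 0.05 and 0.05, where the median gene lay at 0.57. For Hspb7 they were Galc, Parvb and Esrrb, at 0.08, 0.09 and 0.11, where the median gene lay at 0.60. These distances rest on 4 arrays. The remaining members varied less over the arrays than the median probe set, and no nearest genes are named for them.

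Proteins that small heat shock proteins bind or work with were measured for 13 of the 15 listed genes, and 0 passed limma's adjusted threshold, with 1 at an unadjusted p below 0.05, against 5.70% of all 7102 genes. Of the 13, 8 were higher and 5 lower, with a median of 0.08, against 0.02 over all genes tested. It was 0.20 on the deposited scale, 0.15 after the median shift and 0.23 without fibronectin replicate 1. Tmod1 counted as higher at 0.065 (SE 0.30) in its brightest probe set, while its other tested one differed by -1.24 (SE 0.55). Bag1, a co-chaperone of Hsp70, had log2 signals of 9.55 and 9.81 on fibronectin, against 8.84 and 8.95 on the controls, a difference of 0.79 (SE 0.30). Filamin C (Flnc), a client of Hspb7 and of the Hspb8 complex, differed by 0.59 (SE 0.40) with overlapping groups. Titin (Ttn) was lower on both fibronectin arrays, at 10.07 and 10.93, than on the controls, at 10.95 and 11.94, a difference of -0.94 (SE 0.42). Sqstm1, the autophagy receptor p62, differed by -0.46 (SE 0.52) in its brightest probe set and by -1.64 (SE 0.60) and -0.15 (SE 0.66) in its other tested ones, so they disagreed in size. Bag3, the partner of Hspb8, read 9.54 and 9.87 on fibronectin, above its 9.43 and 9.30 on the controls, a difference of 0.34 (SE 0.30).

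Heat shock factors and genes they switch on were measured for 17 of the 22 listed genes. None passed limma's adjusted threshold, 2 had an unadjusted p below 0.05 against 5.70% of all genes, 8 were higher and 9 lower, and the median was -0.16. That median was 0.07 on the deposited scale and 0.03 after the median shift, so its sign turned with the scaling, and it was -0.026 without control replicate 1. Hspa4, an Hsp110-type chaperone, differed by 0.44 (SE 0.51) and Bag3 by 0.34. Serpinh1, the collagen chaperone Hsp47 of matrix-secreting cells, was lower on fibronectin, at 11.40 and 11.31, than on the controls, at 12.14 and 11.86, a difference of -0.65 (SE 0.26). Hsf2, a heat shock factor, differed by -1.82 (SE 0.77), with fibronectin replicate 2 at the floor, so its size there is not measured. The inducible Hsp70 gene Hspa1a had 7.46 and 7.08 on fibronectin and 7.70 and 7.65 on the controls. Dnajb1 counted as higher at 0.31 in its brightest probe set, while its other tested one differed by -1.22. Dnaja1 counted as lower at -0.50, while its other tested probe set differed by 0.22.

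Kinases that phosphorylate these chaperones were tested for 5 of the 8 listed genes, with 2 higher and 3 lower, 0 past the adjusted threshold of limma and 1 at an unadjusted p below 0.05, against 5.70% of all genes. The median of the list was -0.20, against 0.02 over all genes tested. With no filter on dim probe sets it was -0.055, and with the dimmest 60% left out it was 0.09, so its sign turned with the filter. Prkaca, the catalytic subunit of protein kinase A that phosphorylates Hspb6, had 9.73 and 9.20 on fibronectin and 10.61 and 10.27 on the controls, a difference of -0.98 (SE 0.32). Mapkapk5 differed by -0.54 (SE 0.70), Mapk14, the p38 alpha kinase, by 0.37 (SE 0.45), and Mapkapk2, the main kinase of Hspb1, by 0.09 (SE 0.33). Mapk11, the p38 beta kinase, was too dim to test. Of the small heat shock protein relatives outside the muscle group, the lens protein gene Cryaa and the sperm tail gene Odf1 were also too dim to test. Cryaa read 6.09 and 7.55 on fibronectin and 5.40 and 4.55 on the controls, the last at the floor. Ift25, formerly Hspb11, differed by -0.34 (SE 1.04), with fibronectin replicate 2 at the floor, and Hspb9 was not analysed here.

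**Figure D4:**
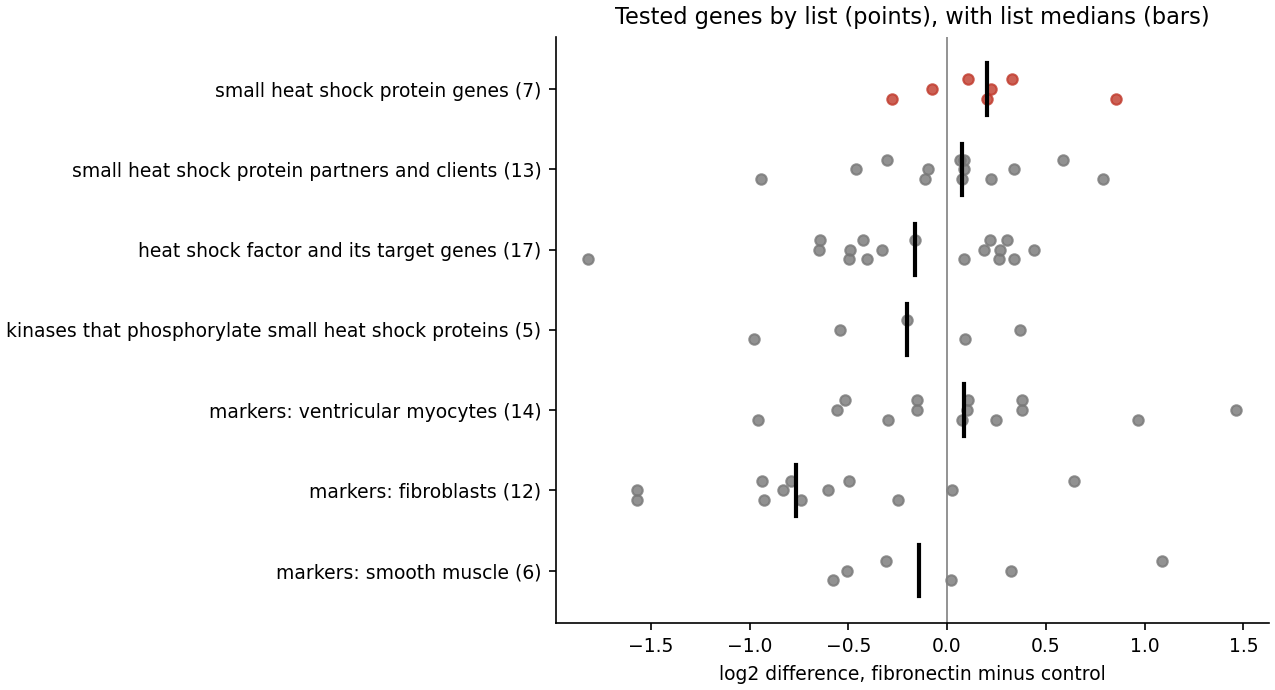
Log2 difference, fibronectin minus control, of each tested gene (1 probe set a gene, the brightest), with a black bar at the median of each list and the number of genes in parentheses. The small heat shock protein genes, in red, run from -0.28 to 0.86 with a median of 0.20, and fibroblast markers have a median of -0.76.

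Other cell types in a ventricular myocyte culture also make Cryab, Hspb1, Hspb6 and Hspb8, and in such bulk samples fewer cells of a type and less RNA per cell cannot be told apart. Fibroblast markers were lower on fibronectin for 10 of 12 genes, 5 of the 12 at an unadjusted p below 0.05 and 0 past limma's adjusted threshold, with a median of -0.76. Over all 7102 genes 48.7% were lower and 5.70% had an unadjusted p below 0.05. The fibroblast median was -0.36 on the deposited scale, -0.41 after the median shift and -0.37 without fibronectin replicate 1. The log2 of their summed signal was 14.24 and 14.94 on fibronectin and 15.02 and 15.61 on the controls, and the sums that follow are on the same scale. Smooth muscle markers had 3 of 6 tested genes higher, with sums of 12.05 and 12.78 on fibronectin and 11.97 and 13.18 on the controls. Of 6 endothelial markers on the array 4 were too dim to test, among them Pecam1 and Vwf, and the 2 tested summed to 8.72 and 8.53 on fibronectin and 8.52 and 8.29 on the controls. Macrophage and leukocyte markers had 5 of 7 tested genes lower, with sums of 10.04 and 10.43 on fibronectin and 10.57 and 10.93 on the controls, and Ptprc was too dim to test. Neural and Schwann cell markers had 3 of 3 tested genes higher by their brightest probe set, with a median of 1.01, or 0.33 with the mean over a gene's probe sets. The myelin gene Cnp differed by 1.01 in its brighter probe set and -1.78 in its dimmer one. This list had sums of 9.14 and 9.76 on fibronectin and 8.64 and 8.30 on the controls, and Sox10 was near the floor throughout. The part of these cell types in the values of the small heat shock protein genes was not tested. Of 14 ventricular myocyte markers, 8 were higher and 6 lower on fibronectin, with differences from -0.96 (Atp2a2) to 1.46 (Nppa). In limma 2 of the 14 had an unadjusted p below 0.05, against 5.70% of all genes, and 0 passed the adjusted threshold. Their median difference was 0.09 by the brightest probe set of each gene. It was 0.50 on the deposited scale and 0.45 after the median shift, beside 0.45 and 0.40 for the members under those scalings. The median of these markers turned to -0.15 with the mean over all tested probe sets of a gene. Myh7, a myosin heavy chain, differed by 0.11 in its brighter probe set and -3.30 in its dimmer one.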

How the data were processed

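The authors' deposited table gives an intensity, on a linear scale, for 15875 probe sets on each of 4 arrays. The sources used here do not say how it was computed or scaled. Detection calls were not used. Precision is limited by the number of arrays, 2 per group. Of these probe sets, 9 are Affymetrix controls and were set aside. The others were quantile normalized, with values under the 20th percentile (23.4) raised to it before taking log2. After removal of the 40% with the lowest mean log2 signal, 9519 probe sets were tested, fibronectin against control, by limma 3.58.1 in R 4.3.3 (lmFit, then eBayes with trend). P-values are two-sided and Benjamini-Hochberg adjusted over all 9519, and SE and intervals use limma's moderated variance. Gene names came from the platform annotation, in which 12783 probe sets had 1 symbol, 312 several and 2771 none. Of the named ones, 12748 had an Entrez identifier in the GRCr8 gene table and 0 symbols needed updating. Promoter sequences are RefSeq's on GRCr8.

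Every member probe set is named, with the 2 highest and 2 lowest differences among tested genes of the lists of partners, heat shock factor targets and kinases, and nearest genes only for members that varied more than the median probe set. Marker lists are given by counts and sums. Bag3 among the partners, Tmod1, Hspa1a, Dnajb1, Dnaja1 and the marker genes named were named after their values were seen. The members and lists were chosen with earlier results of these data known. Alternatives were other scalings, filters, floors and variance models, a block for the replicate number, and the removal of single arrays.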

Additional observations from a re-analysis of the deposited data

How the results depend on the processing

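No member probe set passed limma's Benjamini-Hochberg threshold under any alternative run, and the lowest member adjusted p was 0.112, without fibronectin replicate 1. The number of probe sets past it on the whole array was 0 under the main settings, other scalings, filters, floor, variance model and a threshold of 0.10. It was 230 with the replicate number as a block and ran from 0 to 276 with 1 array left out, the highest without fibronectin replicate 1, with 12 without control replicate 1 and 2 without fibronectin replicate 2. The lone array is then assumed to vary like the other group. With the block the Hspb3 difference had an adjusted p of 0.163, and no member call changed. The deviations of same-numbered arrays correlated at 0.27, and nothing in the labels ties the numbers to a shared culture, so the block is only an alternative.

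Member probe sets without overlap numbered 3, or 5 on the deposited scale and 5 after the median shift, and from 4 to 7 with 1 array left out, where 61.6% to 80.3% of all probe sets do not overlap. With the 60% dimmest left out, the dimmer Hspb8 probe set was not tested. Signs turned for Hspb2 (0.021 on the deposited scale, and -0.52 to 0.36 with 1 array left out), Hspb6 (-0.076 to 0.52), Hspb7 (-0.44 to 0.65) and the brighter Hspb8 probe set (-0.64 to 0.088). The cause was not tested.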
